A study of Mus musculus with 6 samples.

Results

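Alpha and beta tubulins are the building blocks of microtubules. The 10 genes described here are 5 alpha tubulins (Tuba1a, Tuba1b, Tuba1c, Tuba4a and Tuba8) and 5 beta tubulins (Tubb1, Tubb2a, Tubb4b, Tubb5 and Tubb6), taken by gene symbol from the 54532 genes of the expression table. Of these 10 genes, 9 had a mean of at least 1 FPKM and were tested, and Tubb1 did not reach that level. In LSK cells of Myh9 fl/fl;Mx1-cre mice, Tuba8, Tubb2a and Tubb4b were higher than in controls, Tuba1a and Tubb5 were lower, and the other 4 tested genes did not pass the test. The changes were small beside the total. In FPKM as deposited, the summed alpha level and the summed beta level each differed by under 2% between the groups. The shares of single genes within each family shifted.

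One alpha and one beta tubulin bind to form the heterodimer that microtubules are made of, and mammals carry several genes for each, called isotypes. The isotypes are alike along most of their length and differ most in the acidic C-terminal tail, which faces outwards on the microtubule and receives glutamate, glycine and tyrosine modifications. Cells also adjust tubulin mRNA to the amount of free tubulin: TTC5 recognises the first residues of a nascent tubulin chain on the ribosome, and the mRNA is then degraded. In blood, Tubb1 is the beta tubulin of megakaryocytes and platelets, and Tuba4a is an alpha tubulin that platelets also hold.

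The study sequenced RNA of LSK cells, the Lin-Sca1+c-kit+ fraction of bone marrow that holds hematopoietic stem cells and multipotent progenitors, to learn how expression differs after loss of Myh9, the gene of non-muscle myosin heavy chain IIA. The cKO group was Myh9 fl/fl;Mx1-cre (n = 3) and the CTRL group littermate Myh9 fl/fl;no cre (n = 3), all of the C57BL/6 strain, and 100000 cells were sorted for each library. Both groups carried the floxed alleles and both received 5 mg/kg poly I:C every other day, so the controls shared the interferon stimulus and lacked only the Cre. Cells were taken 4 days after the first injection. The labels give 2 doses and the study's methods 3, and the methods place the injections at 5 to 6 weeks of age. The Mx1 promoter answers to interferon and is not limited to blood cells, so other tissues of the cKO mice may have lost Myh9 too. The study calls the cell sets independent, but whether each set came from 1 mouse or a pool is not given in the sources used here, so the p-values measure the spread between these libraries.

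Levels are given as FPKM, the number of fragments scaled by gene length and by the mapped fragments of the library, which allows genes of different length to be compared. The libraries held 17571544 to 19894562 reads on genes, of which the 10 tubulin genes took 0.494 to 0.514%. For a gene of 1 kb, 3 reads came to 0.151 to 0.170 FPKM. Libraries correlated more closely within a group (r of log2 values across genes 0.991 to 0.993) than between groups (0.974 to 0.977). Myh9 itself was at 23.0, 22.6 and 22.0 FPKM in CTRL and at 18.4, 20.0 and 17.7 FPKM in cKO. Every cKO library was below every CTRL library, and the log2 fold change was -0.26 ± 0.049 (SE, n = 3 and 3, limma adjusted p = 0.00642), so the cKO mean was 0.829 of the CTRL mean. Once smooth trends of the values with GC content and length had been removed from every library, the Myh9 difference was -0.16 on the log2 scale. Kit and Ly6a, the genes of the c-kit and Sca1 gate, stood at 23.9 and 95.4 FPKM in CTRL and at 21.5 and 89.5 FPKM in cKO. Of the 6 genes of the LSK list, Flt3 was higher and Kit was lower.

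Markers of other blood lineages differed between the groups, and their part in the tubulin differences was not tested. Over all genes tested, 40.5% were called, 19.9% higher and 20.6% lower in cKO. All 7 tested of 13 megakaryocyte markers were higher in cKO, with a summed level of 78.4 to 83.5 FPKM in CTRL and 158 to 162 FPKM in cKO. Pf4 was the most abundant of them, and Gp1bb was at 0 in all libraries. All 9 tested of 12 erythroid markers were higher, with sums of 551 to 558 FPKM in CTRL and 977 to 1018 FPKM in cKO, most of it from Car1 and Car2. Of 10 tested neutrophil and monocyte markers, 8 were lower and 1 was higher, and their sum stood at 10821 to 10851 FPKM in CTRL against 6015 to 6122 FPKM in cKO, led in CTRL by Mpo, Elane and Prtn3 and in cKO by Mpo, Ctsg and Elane. Of 6 mast cell and basophil markers 5 were higher, with sums of 90.3 to 102 FPKM in CTRL and 149 to 158 FPKM in cKO. Of 4 tested B and plasma cell markers 3 were higher, with sums of 65.2 to 69.5 FPKM in CTRL and 102 to 107 FPKM in cKO. Of the T and NK list, the tested genes were Trbc2, which was higher (1.22 FPKM in CTRL and 6.13 FPKM in cKO), and Nkg7, which was lower (353 and 280 FPKM). The sum of this list, 352 to 362 FPKM in CTRL and 288 to 294 FPKM in cKO, was almost all Nkg7. Among its untested genes, Cd3d (0.141 and 1.45 FPKM), Cd3g (0.0495 and 0.654 FPKM), Cd4 (0.311 and 0.826 FPKM), Gzma (0.425 and 1.56 FPKM) and Klrb1c (0.354 and 1.01 FPKM) had higher values in every cKO library than in any CTRL library. Cd3e was at 0 in CTRL and at 0.234 FPKM in cKO, and Cd8a was at or near 0 in both groups. In sorted cells measured in bulk, fewer cells of a type and less RNA per cell cannot be told apart.

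The ends of the coding sequences are shown because the C-terminal tail is where the isotypes differ most. The last 60 coding bases, with the stop codon, lie in the last coding exon of each gene. On GRCm38 they are at chr15:99037950-99038009 (Tuba1c), chr1:75215622-75215681 (Tuba4a) and chr6:121226020-121226079 (Tuba8). The beta tubulin ends are at chr2:174457823-174457882 (Tubb1), chr13:34074468-34074527 (Tubb2a), chr2:25222308-25222367 (Tubb4b) and chr17:35834982-35835041 (Tubb5). Each is written 5′ to 3′ on the coding strand, and capitals mark bases that differ from Tuba1c for the alpha genes and from Tubb5 for the beta genes in a global alignment.
Tuba1c: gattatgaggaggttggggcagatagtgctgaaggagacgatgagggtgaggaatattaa
Tuba4a: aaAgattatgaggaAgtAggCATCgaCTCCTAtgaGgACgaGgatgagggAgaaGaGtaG
Tuba8: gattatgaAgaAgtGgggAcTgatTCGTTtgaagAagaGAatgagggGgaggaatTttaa
Tubb5: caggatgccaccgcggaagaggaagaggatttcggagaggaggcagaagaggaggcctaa
Tubb4b: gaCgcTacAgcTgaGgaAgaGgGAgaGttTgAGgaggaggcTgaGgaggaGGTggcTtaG
Tubb2a: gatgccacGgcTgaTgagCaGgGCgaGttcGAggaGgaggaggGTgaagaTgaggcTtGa
Tubb1: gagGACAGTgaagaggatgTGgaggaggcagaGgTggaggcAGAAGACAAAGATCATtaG

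Of these 60 bases, Tuba8 held 15 that differ from Tuba1c and Tuba4a held 21. Tubb4b held 20 and Tubb2a 16 that differ from Tubb5. The first 12 bases are shown for Tuba8 and the beta genes that passed the test, with Tuba1c for reference, since they encode the residues that the TTC5 pathway reads. Capitals are used in the same way, and 3 of these 12 bases differ from the reference in Tuba8, 3 in Tubb2a and 1 in Tubb4b. None of these differences changes an encoded residue, so the residues are the same as in the reference of each family.
Tuba1c: atgcgtgagtgc
Tuba8: atgAgGgaAtgc
Tubb5: atgagggaaatc
Tubb4b: atgagggaGatc
Tubb2a: atgCgCgaGatc

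Over the whole coding sequence, Tuba1a and Tuba1b were 98.3% identical, Tuba1b and Tuba1c 97.9%, and Tuba1a and Tuba1c 97.1%. Tuba4a and Tuba8 were 79.2 to 85.2% identical to the other alpha genes. The beta genes were 73.2 to 84.6% identical to each other. After the stop codon, the alpha genes were 6.4 to 43.5% identical over the length of the alignment. Gaps count as differences there, so unequal lengths after the stop codon lower these values.

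Such similarity bears on the counts, because a short read from a shared stretch can be given to either gene. Of all 100-base windows of the principal transcript, 73.0% in Tuba1b, 65.8% in Tuba1a and 53.4% in Tuba1c also occur in a transcript of another gene. The corresponding share was 36.9% in Tubb2a, nearly all of it with Tubb2b, and 30.6% in Tubb4b, mainly with the pseudogene Tubb4b-ps1. For Tuba4a it was 46.7%, all in the stretch that overlaps Stk16 on the opposite strand, and for Tuba8 it was 12.5%, in the stretch that overlaps the antisense gene Gm15856. No such window was shared in Tubb5, Tubb6 or Tubb1. The levels of Tuba1a, Tuba1b, Tuba1c, Tubb2a and Tubb4b are therefore uncertain by the reads that could be placed on a copy, and how the counting treated such reads is not given in the sources used here.

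**Figure D1:**
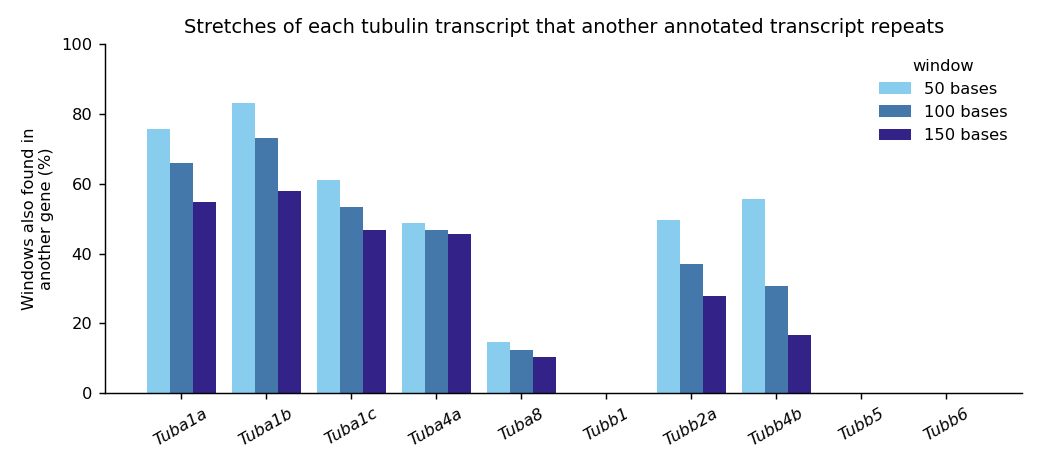
Percent of windows of 50, 100 or 150 bases along each tubulin transcript that also occur, on either strand, in an annotated transcript of another gene (GENCODE M21). Tuba1b, Tuba1a and Tuba1c stand highest at every window length, and Tubb1, Tubb5 and Tubb6 have almost none.

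Some of the copies held reads. Of 19 pseudogenes that share a 50-base window with a tubulin gene, 10 were at 0 in every library. The 13 pseudogenes that share with Tuba1a, Tuba1b or Tuba1c summed to 54.9 to 60.2 FPKM, which is 6.00 to 6.63% of the summed level of those 3 genes. Gm3226, the most abundant, ranged from 16.8 to 20.5 FPKM in CTRL and from 17.6 to 22.2 FPKM in cKO, and the groups overlapped. Gm49450, an annotated gene that spans Tuba1a and Tuba1b on the same strand, was at 6.49, 5.93 and 7.998 FPKM in CTRL and at 7.31, 11.7 and 6.40 FPKM in cKO. Its groups overlapped too. Tubb4b-ps1 was at 5.61, 6.84 and 6.28 FPKM in CTRL and at 7.39, 8.50 and 8.29 FPKM in cKO, with no overlap, so it stood higher in the same libraries as Tubb4b. Tubb2b stood at 0.0219 to 0.136 FPKM in CTRL and at 0.186 to 0.258 FPKM in cKO.

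The levels of the 10 genes spanned from under 1 FPKM for Tubb1 to 732 FPKM for Tuba1b. From high to low, the order of the mean FPKM over the 6 libraries was Tuba1b, Tubb5, Tubb4b, Tuba1c, Tuba4a, Tuba1a, Tuba8, Tubb2a, Tubb6 and Tubb1. The ranges of neighbours in this order over the 6 libraries did not overlap, except for Tubb2a and Tubb6, which stood in this order in 3 of 6 libraries. Tuba1b stood above 99.2% of all 11552 tested genes and Tubb5 above 98.98%. Tubb2a and Tubb6 stood near the middle, above 54.5% and 51.3%.

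**Figure D2:**
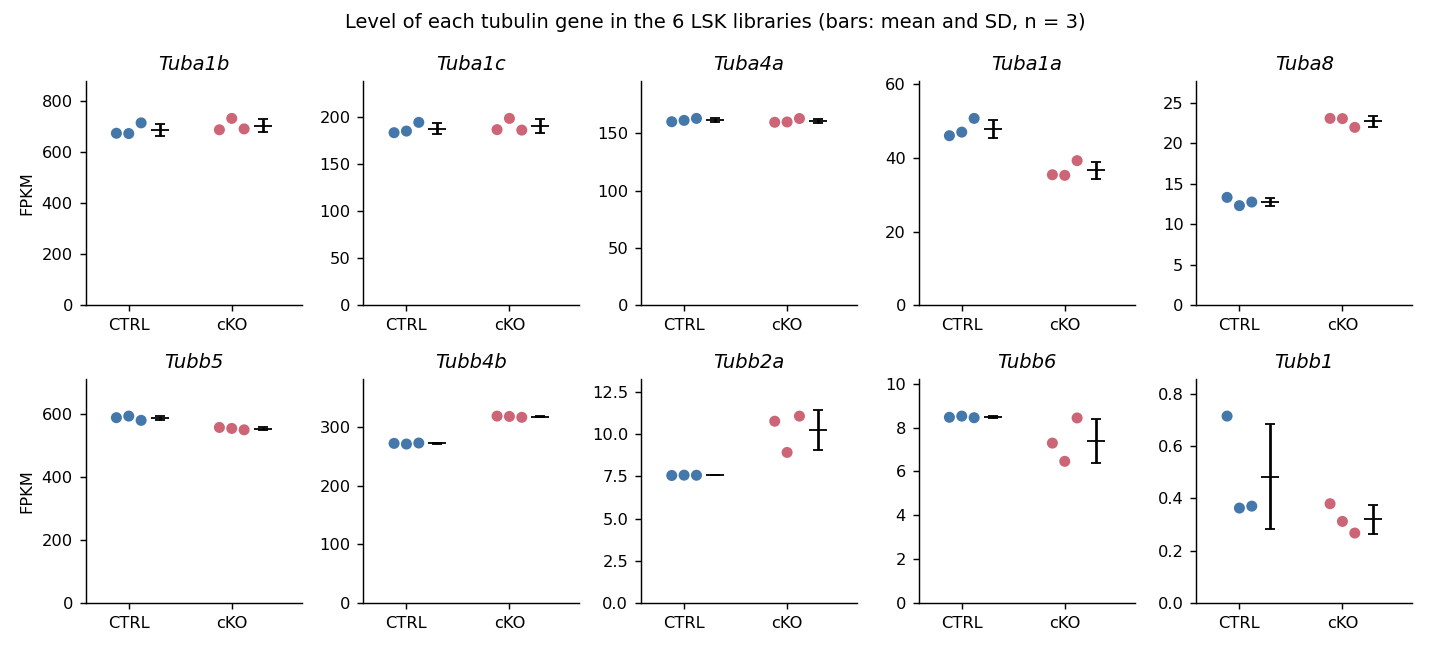
FPKM of each tubulin gene in the CTRL libraries (blue) and the cKO libraries (red), with the mean and SD of each group (n = 3) beside the points and every axis starting at 0. Tuba8 and Tubb4b sit higher and Tuba1a lower in all cKO libraries, while Tuba1b, Tuba1c and Tuba4a overlap.

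Of the 9 tested tubulin genes, 5 passed the test at an adjusted p under 0.05 (55.6%), beside 40.5% of all 11552 genes tested. The 3 that were higher stand beside a background of 19.9% of all genes called higher, and the 2 that were lower beside 20.6% called lower. In 6 of the 9 genes all cKO libraries lay on one side of all CTRL libraries, which was so for 54.0% of all genes. The median log2 fold change of the 9 genes was 0.02 and that of all genes -0.0096, and the median size regardless of sign was 0.18 and 0.15. None changed by more than 2-fold, a size reached with an unadjusted p under 0.05 by 2.13% of all genes. With 9 genes these shares are a description only.

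Among the alpha genes, Tuba8 differed most. Tuba8 (chr6:121210696-121226854, plus strand) encodes an alpha tubulin of narrow tissue distribution and lacks the C-terminal tyrosine codon of most alpha isotypes. It was at 13.3, 12.3 and 12.8 FPKM in CTRL and at 23.1, 23.1 and 22.0 FPKM in cKO. All cKO libraries lay well above all CTRL libraries, and the spread within each group was small beside the gap. Its mean rose 1.78-fold, from 12.8 ± 0.512 to 22.7 ± 0.633 FPKM (SD, n = 3), with a log2 fold change of 0.78 ± 0.041 (SE, limma adjusted p = 3.5e-05). Only 3.76% of all tested genes had a larger fold change in either direction. The value rested on 491 to 600 reads in CTRL and 926 to 979 reads in cKO, and the antisense gene Gm15856 stood at 0.109 FPKM in CTRL and 0.154 FPKM in cKO on average.

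Tuba1a (chr15:98949837-98953703, minus strand), the alpha isotype best known from developing neurons, was lower in cKO. It was at 46.0, 47.0 and 50.7 FPKM in CTRL and at 35.4, 35.3 and 39.3 FPKM in cKO. The highest cKO library stayed below the lowest CTRL library, and Tuba1a fell by 0.38 ± 0.055 on the log2 scale (SE, n = 3 and 3, limma adjusted p = 0.00233). The ratio of Tuba1a to Tuba1b, its neighbour with the near-identical coding sequence, went from 0.0698 ± 0.0013 to 0.0522 ± 0.0044 (SD, n = 3) with no overlap.

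The 3 most abundant alpha genes did not pass the test. Tuba1b (chr15:98931425-98934565, minus strand), the widely expressed isotype that made up most of the alpha level, was at 673, 672 and 714 FPKM in CTRL and at 687, 732 and 690.4 FPKM in cKO. The groups overlapped, and the log2 difference was 0.03 with a 95% interval of -0.05 to 0.12 (limma adjusted p = 0.499). Tuba1c (chr15:99029891-99038110, plus strand), the third gene of the chromosome 15 cluster, was at 184, 185 and 195 FPKM in CTRL and at 187, 199 and 186 FPKM in cKO. Its libraries overlapped as well, and the log2 difference was 0.02 with an interval of -0.07 to 0.11 (limma adjusted p = 0.677). The signs of both differences turned under quantile normalization (-0.04 for each) and when GC content and length trends were removed, without reaching the threshold.

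Tuba4a (chr1:75214228-75219865, minus strand), whose coding sequence ends without a tyrosine codon, had the smallest log2 difference of the 9 tested genes. It was at 160.2, 161 and 163 FPKM in CTRL and at 159.8, 160.0 and 163 FPKM in cKO. The groups overlapped almost fully, and the log2 difference of -0.0059 had an interval of -0.06 to 0.05 (limma adjusted p = 0.854). Stk16, a kinase gene that overlaps Tuba4a by 1379 bases on the opposite strand, stood at 43.1 FPKM in CTRL and 43.8 FPKM in cKO on average. Whether the counting used strand is not given in the sources used here, so reads of the overlap cannot be told apart.

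Among the beta genes, Tubb4b and Tubb5 moved in opposite directions. Tubb5 (chr17:35833921-35838306, minus strand) is the main beta isotype of dividing cells and Tubb4b (chr2:25222160-25224702, minus strand) a widely expressed isotype that is also abundant in cilia. Tubb4b was at 273, 272 and 273 FPKM in CTRL and at 319, 319 and 317 FPKM in cKO. Both groups were tight and lay far apart, and Tubb4b rose by 0.22 ± 0.020 on the log2 scale, or 16.9% of its mean (SE, n = 3 and 3, limma adjusted p = 2.9e-04).

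Tubb5 was at 588, 593 and 579.6 FPKM in CTRL and at 557, 554 and 549.5 FPKM in cKO. The groups did not overlap, and the log2 difference was -0.08 ± 0.021 (SE, limma adjusted p = 0.0184), and its mean fell by 5.69%. This call was lost when all genes with any value above 0 were tested (limma adjusted p = 0.057) and when the variance was fitted without a trend (0.0825). It was also lost without CTRL replicate 1 (0.0683), CTRL replicate 2 (0.0694) or cKO replicate 3 (0.0595), with a log2 difference of -0.08 in each case. The ratio of Tubb4b to Tubb5 was 0.464 ± 0.0069 in CTRL and 0.575 ± 0.0020 in cKO (SD, n = 3). Scaling a whole library by a single factor leaves this ratio unchanged. Quantile normalization and the removal of GC content and length trends can change it.

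The less abundant Tubb2a and Tubb6 spread widely among the cKO libraries and little among the CTRL libraries. Tubb2a (chr13:34074274-34078007, minus strand), an isotype best known from neurons, was at 7.56, 7.58 and 7.57 FPKM in CTRL and at 10.8, 8.93 and 11.1 FPKM in cKO. Every cKO library was above every CTRL library, with cKO replicate 2 nearest to them. Tubb2a rose by 0.39 ± 0.076 on the log2 scale (SE, n = 3 and 3, limma adjusted p = 0.00778), on 215 to 242 reads in CTRL and 262 to 332 reads in cKO. Without 1 library at a time, its log2 fold change ran from 0.34 to 0.48.

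Tubb6, a beta isotype known from muscle regeneration and from many other tissues, was at 8.47, 8.53 and 8.45 FPKM in CTRL and at 7.29, 6.46 and 8.44 FPKM in cKO. The groups did not overlap, but cKO replicate 3 lay just under the controls, and the log2 difference of -0.18 had a 95% interval of -0.38 to 0.02 (limma adjusted p = 0.127). Without cKO replicate 3 the difference was -0.27 and passed the test (limma adjusted p = 0.0192), and without cKO replicate 2 it was -0.10 and did not (0.275). Tubb1 (chr2:174450695-174457882, plus strand) was barely detected. It was at 0.715, 0.363 and 0.371 FPKM in CTRL and at 0.380, 0.312 and 0.268 FPKM in cKO. These values rest on 20, 9 and 10 reads against 10, 8 and 7 reads, the groups overlapped, and no difference could be shown at this depth. Of the 13 megakaryocyte markers, 7 reached the mean of 1 FPKM needed for testing, and the others, like Tubb1, did not. Abundant ones were Pf4 (31.9 FPKM in CTRL and 68.1 FPKM in cKO), Itga2b (17.0 and 37.3 FPKM) and Gp9 (8.88 and 20.7 FPKM).

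**Figure D3:**
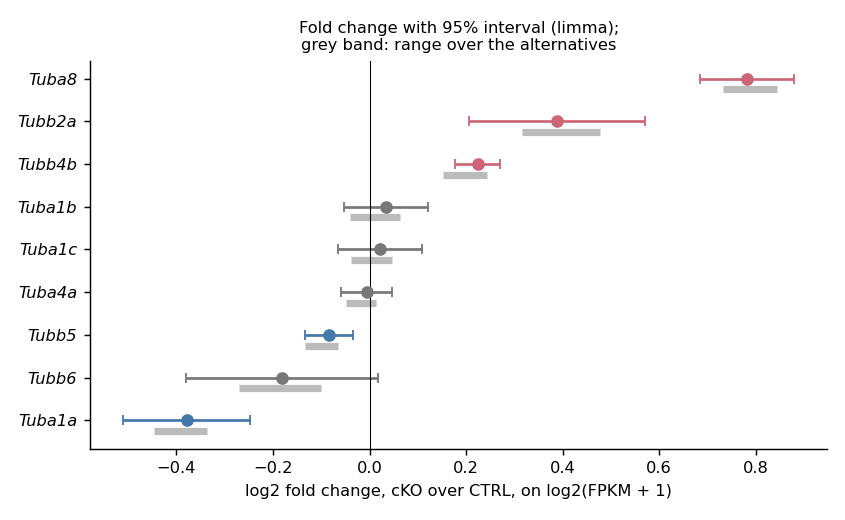
Log2 fold change of cKO over CTRL on log2(FPKM + 1) for the 9 tested tubulin genes, with the 95% interval from limma (red higher, blue lower, grey did not pass). The grey band under each point is the range over the 16 alternative settings; the bands of Tuba8, Tubb2a, Tubb4b, Tubb5, Tubb6 and Tuba1a stay on one side of 0.

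In sum the families differed little. The 5 alpha genes together came to 1077, 1078 and 1135 FPKM in CTRL and to 1092, 1149 and 1101 FPKM in cKO, with overlap, and means of 1097 ± 33.4 and 1114 ± 30.5 FPKM (SD, n = 3). The 5 beta genes came to 878, 881 and 869 FPKM in CTRL and to 895, 888 and 887 FPKM in cKO. These groups did not overlap, but the difference was only 1.59% of the mean. Its log2 ratio of 0.0228 was 0.0013 with each library rescaled to the same sum and 0.0353 with scaling by the median of ratios. Without Tubb5, the other beta genes went from 289 ± 0.907 to 337 ± 1.75 FPKM, or 16.4% higher. The ratio of the alpha to the beta sum was 1.25 in both groups.

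Within the families, the shares of single isotypes shifted. Tubb5 held 67.0% ± 0.321 of the beta level in CTRL and 62.2% ± 0.192 in cKO, and Tubb4b 31.1% ± 0.314 and 35.8% ± 0.0963 (SD, n = 3). Tubb2a held 0.864% and 1.15%, Tubb6 0.968% and 0.831%, and Tubb1 under 0.1% in every library. In the alpha family, Tuba8 went from 1.17% ± 0.0617 to 2.04% ± 0.0651 and Tuba1a from 4.37% ± 0.0967 to 3.29% ± 0.252, while Tuba1b stayed at 62.6% and 63.1% with overlap. The shares of Tuba1c and Tuba4a overlapped between the groups too, at 17.1% in both groups for Tuba1c and at 14.7% and 14.5% for Tuba4a. The shares are of transcripts and say nothing of protein, and no test was made on them, since the genes of a family share 1 total.

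**Figure D4:**
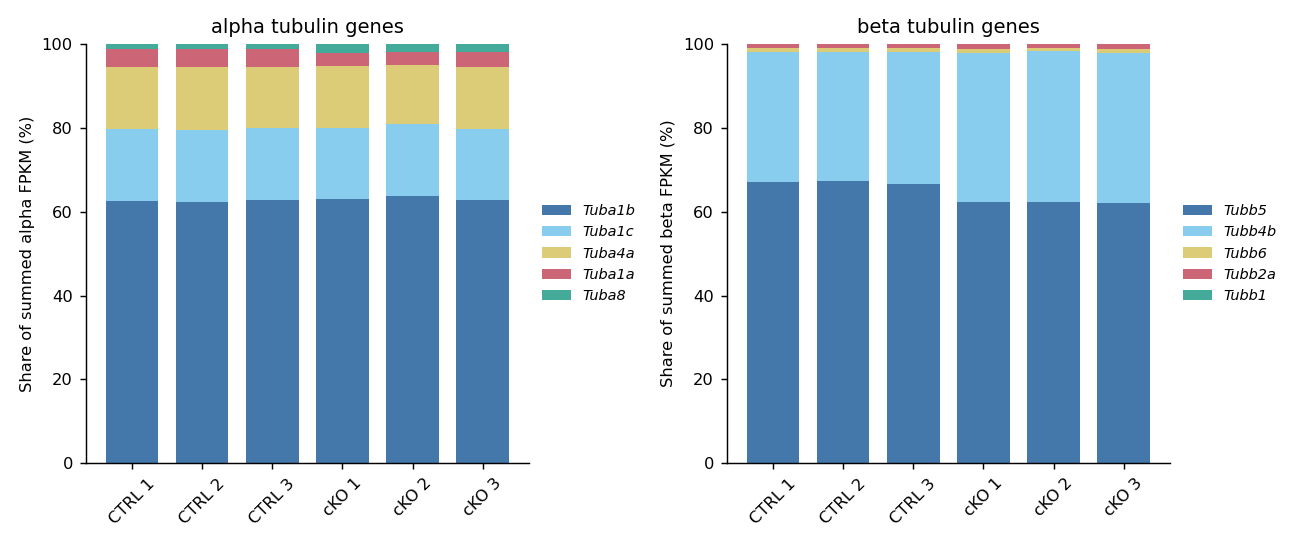
Share of each gene in the summed FPKM of the alpha (left) and beta (right) tubulin genes, in percent, for each of the 6 libraries. The Tubb4b block is taller and the Tubb5 block shorter in all cKO libraries, and the alpha makeup is nearly the same throughout.

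The stretch before the transcription start is shown for the 3 genes that were higher and for Tubb5, which moved against Tubb4b. The sequences are RefSeq promoter windows on GRCm38.p6, in which 9 of the 10 tubulin genes matched, cut to the bases outside the gene as the expression table bounds it. They are at chr6:121210484-121210695 (Tuba8, plus strand), chr2:25224703-25224952 (Tubb4b, minus strand), chr13:34078009-34078258 (Tubb2a, minus strand) and chr17:35838307-35838551 (Tubb5, minus strand). Capitals mark motifs of 4 kinds. The first is the CCAAT box in exactly these letters. The GC box is written GGGCGG in this search. The core promoter element known as the TATA box is taken as TATAAA. The motif of the GATA factors of blood development is taken as AGATAA. All were searched on both strands, so that the reverse complement of each counts as well. None of these motifs overlaps another one here.
Tuba8: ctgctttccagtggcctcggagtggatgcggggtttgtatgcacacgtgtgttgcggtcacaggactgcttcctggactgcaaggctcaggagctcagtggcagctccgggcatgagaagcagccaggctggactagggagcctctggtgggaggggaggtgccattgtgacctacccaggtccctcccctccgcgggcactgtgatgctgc
Tubb4b: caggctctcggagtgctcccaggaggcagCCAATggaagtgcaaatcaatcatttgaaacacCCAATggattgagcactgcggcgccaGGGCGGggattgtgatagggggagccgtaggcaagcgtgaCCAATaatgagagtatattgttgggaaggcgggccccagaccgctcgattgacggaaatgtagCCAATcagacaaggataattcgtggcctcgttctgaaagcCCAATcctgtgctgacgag
Tubb2a: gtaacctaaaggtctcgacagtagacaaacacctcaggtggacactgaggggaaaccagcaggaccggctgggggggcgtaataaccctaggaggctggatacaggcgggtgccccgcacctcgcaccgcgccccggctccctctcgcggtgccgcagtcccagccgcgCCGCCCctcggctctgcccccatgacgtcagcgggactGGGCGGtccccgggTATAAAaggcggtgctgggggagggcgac
Tubb5: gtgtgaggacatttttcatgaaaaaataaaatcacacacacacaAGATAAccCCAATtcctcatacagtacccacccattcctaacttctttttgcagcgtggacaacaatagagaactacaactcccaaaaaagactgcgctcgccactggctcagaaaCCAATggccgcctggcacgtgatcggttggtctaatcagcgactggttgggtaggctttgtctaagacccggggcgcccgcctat

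Tubb4b held 5 CCAAT boxes and 1 GC box, and Tubb5 held 2 CCAAT boxes and 1 GATA motif. Tubb2a held 2 GC boxes and a TATA box. Tuba8 held none of the 4 motifs in these letters. Over the 250 bases before the start, 4 of the 9 tubulin genes held CCAAT, beside 33.8% of 32851 RefSeq promoters, and 5 held GGGCGG, beside 32.7%. TATAAA was in 1, beside 12.4%, and AGATAA in 1, beside 3281 of the 32851. The 3 genes that were higher shared none of the 4 motifs as a set.

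Tubulin needs chaperones to fold: prefoldin hands the nascent chain to the ring-shaped CCT complex, and the cofactors Tbca to Tbce then join alpha to beta. Of the 21 genes of this folding list, all tested, 13 rose and none fell (61.9% called, beside 40.5% of all genes), with a median log2 fold change of 0.14 beside -0.0096 for all genes. The prefoldin subunits Pfdn1 (0.35 ± 0.061), Pfdn6 (0.30 ± 0.063) and Pfdn2 (0.26 ± 0.051) and the CCT subunit Cct6a (0.29 ± 0.029) rose most on the log2 scale (SE, limma adjusted p = 0.0045, 0.0107, 0.0075 and 4.8e-04). Pfdn1 was at 56.6, 55.5 and 61.9 FPKM in CTRL and at 79.0, 69.1 and 75.3 FPKM in cKO. Cct6a was at 97.4, 95.2 and 97.8 FPKM in CTRL and at 115, 121 and 119.5 FPKM in cKO. In both genes every cKO library was above every CTRL library. Pfdn4 (0.22) passed as well, but lost its call under 10 of the 16 alternatives. The other prefoldin subunits, Pfdn5 (-0.03) and Vbp1 (0.08), did not pass, and neither did Arl2 (0.06) or Tbcel (-0.10). All 8 CCT subunits (Tcp1, Cct2, Cct3, Cct4, Cct5, Cct6a, Cct7 and Cct8) passed the test, by 0.13 to 0.29 on the log2 scale, though Cct5 lost its call under quantile normalization and Cct7 without CTRL replicate 2. Of the cofactors, Tbcb passed at 0.21 (not once GC content and length trends were removed), while Tbca, Tbcc, Tbcd and Tbce, at 0.07 to 0.13, did not. CCT and prefoldin also fold actin and other proteins. Under the 16 alternatives, 11 to 15 genes of the list were higher and none lower.

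The factors of tubulin mRNA autoregulation did not pass the test. Ttc5, which binds the nascent chain, was at 14.3, 13.9 and 13.4 FPKM in CTRL and at 13.9, 13.0 and 13.6 FPKM in cKO, a log2 difference of -0.04 (limma adjusted p = 0.506). Its groups overlapped. Scaper and Cnot11, which link it to mRNA decay, differed by -0.0041 and -0.04 on the log2 scale (limma adjusted p = 0.969 and 0.60).

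Other tubulins were few in these cells. Of 10 further tubulin genes, 3 were tested, Tubg1 (gamma, at 23.9 FPKM in CTRL and 23.2 FPKM in cKO), Tubd1 (delta, 7.96 and 9.24 FPKM) and Tube1 (epsilon, 2.33 and 2.17 FPKM), and none passed. Tubb3, Tubb4a, Tubb2b, Tubg2 and Tuba3b stayed under 1 FPKM in every library, and Tuba3a and Tubal3 were at 0. Of 22 tested genes of microtubule nucleation, with Tubg1 among them, 3 rose and 3 fell (27.3% called, beside 40.5% of all genes). Tubgcp2, a core subunit of the gamma tubulin ring, fell by 0.26 on the log2 scale and kept its call under all 16 alternatives. The others lost their call under 3 to 10 alternatives, each with some single libraries left out: Cdk5rap2 (-0.28) and Nedd1 (-0.19), which anchor the ring, and Mzt2 (0.22), Haus7 (0.19) and Mzt1 (0.15), small ring partners and an augmin subunit.

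Of 13 tested genes that modify tubulin at its tail or elsewhere, 2 rose and 1 fell (23.1% called, beside 40.5% of all genes). Svbp, the partner that vasohibins need to remove the terminal tyrosine of alpha tubulin, rose by 0.58 ± 0.067 on the log2 scale (SE, n = 3 and 3, limma adjusted p = 9.2e-04). It was at 36.6, 36.7 and 39.3 FPKM in CTRL and at 58.2, 60.9 and 51.1 FPKM in cKO, with no overlap. The vasohibin genes themselves were low, Vash1 at 1.26 and 1.41 FPKM (log2 difference 0.08, limma adjusted p = 0.591) and Vash2 at 0.174 and 0.251 FPKM, not tested. Ttl, the ligase that restores the tyrosine, was at 1.78 and 1.52 FPKM and did not pass (limma adjusted p = 0.191). The calls of Ttll12 (0.13) and of the glutamylase gene Ttll5 (-0.30) were lost under 11 and 6 alternatives, each with some single libraries left out.

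Of 25 tested genes of microtubule stability and ends, 5 fell and none rose. The 20.0% called lower is close to the 20.6% of all genes called lower, and 40.5% of all genes were called in either direction. Mtus1, a microtubule-associated tumour suppressor, fell by 0.96 ± 0.048 on the log2 scale (SE, n = 3 and 3, limma adjusted p = 2.9e-05), from 6.04, 6.05 and 5.82 FPKM in CTRL to 2.54, 2.53 and 2.70 FPKM in cKO. Map7d1 differed by -0.39 and Slain2, which helps plus ends to grow, by -0.20. Stmn1, which binds free tubulin dimers and was named after its values were seen, was at 410, 402 and 425 FPKM in CTRL and at 375, 375 and 359.9 FPKM in cKO. Its log2 difference was -0.16 (limma adjusted p = 0.00745). With GC content and length trends removed, 3 genes of this list were lower and 1 was higher, Slain2 no longer passed, and the median of the list turned from -0.04 to 0.02. Slain2 also lost its call without CTRL replicate 1.

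Of 25 tested genes of dynein, dynactin and kinesin-1 transport, 3 rose and 4 fell (28.0% called, beside 40.5% of all genes). The dynein light chain Dynll1 rose by 0.48 and the dynactin subunit Dctn3 by 0.40, while Dctn1, the dynactin subunit that binds microtubules, fell by 0.36 and the dynein regulator Ndel1 by 0.31 on the log2 scale. These 4 calls held under all 16 alternatives. Nde1 (0.16), Dync1h1 (-0.19) and Pafah1b1 (-0.12) lost theirs under 6 to 10, each with some single libraries left out. The 14 mitotic (G2/M) marker genes, of which 7 were called, beside 40.5% of all genes, did not move one way: Ube2c (0.37), Ccnb1 (0.32), Cdc20 (0.24) and Ccnb2 (0.20) were higher, and Top2a (-0.36), Mki67 (-0.14) and Aurkb (-0.10) were lower on the log2 scale. The calls of Mki67 and Aurkb were lost under 10 alternatives each, among them single libraries left out. How far these differences in mitotic genes go with those of Tubb4b and Tubb5 was not tested.

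**Figure D5:**
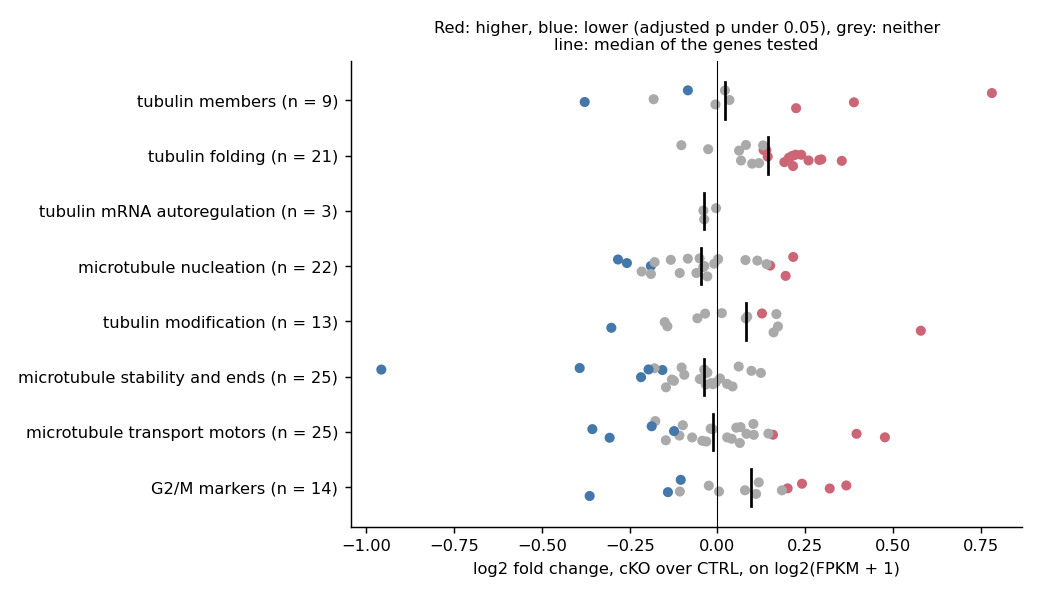
Log2 fold change of cKO over CTRL on log2(FPKM + 1) for each tested gene of the tubulin genes and of 7 lists of genes that act on tubulin or mark mitosis (red higher, blue lower, grey did not pass), with a line at each list's median. The folding list lies mostly right of 0, with 13 of 21 genes in red, and the other lists spread to both sides.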

How the data were processed

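The authors deposited one table of FPKM values per gene and library, with gene positions and lengths, of which the 6 LSK columns were used. Per the labels, libraries were made with an Illumina TruSeq RNA kit, and the submitters' processing notes name HISAT2 2.0.5 and mm10. The counting program, read length and annotation release are not given in the sources used here. FPKM times gene length gave whole reads for 100% of values (tolerance 0.05 reads), used for depth and for 1 alternative. The table also holds 1 column of values that was not used.

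Groups came from the sample titles. FPKM were tested on log2(FPKM + 1), which understates changes of low genes, with limma 3.58.1 (R 4.3.3, eBayes with a trend, two-sided) over the 11552 genes whose mean reached 1 FPKM, and adjusted by Benjamini-Hochberg over all of them. The threshold was an adjusted p of 0.05. The fit was also run on simulated data with the same spread setting for all genes and changes larger than those of most tubulin genes. That run does not bear on calls as small as that of Tubb5. With 3 against 3, an exact permutation test cannot go below 0.1, so none was used for single values. Shared windows of 50, 100 and 150 bases and coding ends came from GENCODE M21 transcripts, where 53462 of 54532 genes had the same position, and promoters from RefSeq (GRCm38.p6). Some sequences and 1 gene of the pathway lists are not reported here. Python 3.11.15 was used.

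The tubulin genes and all lists were chosen with earlier results of these data known. Named were Myh9, all 10 tubulin genes, Ttc5, Scaper, Cnot11, up to 4 called genes per direction of each pathway list with the largest fold change, up to 3 abundant genes per marker list, genes at 0 and tubulin pseudogenes. Other genes named (Stmn1, Svbp's partners, Prtn3, the untested T and NK markers, Ttl, the remaining chaperones and gate genes, and genes that overlap or share sequence with tubulin genes) were added after their values were seen. Alternatives were another pseudocount, filters, scalings, variance models, the replicate number as a block, voom on recovered reads, removal of GC content and length trends, and leaving out each library.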

Additional observations from a re-analysis of the deposited data

How the results depend on the processing

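Of 160 values of the tested tubulin genes and Myh9 under 16 alternatives, 154 kept their direction or their lack of a call, 5 lost the call (all Tubb5) and 1 gained it (Tubb6). The tubulin genes called lower numbered 1 in place of 2 with no filter on low values and with no trend in the variance. With 1 library left out at a time, 3 were called higher throughout and 1 to 2 lower. Over all genes, 1784 to 2043 were then higher and 1758 to 2065 lower, in place of 2295 and 2378, and of the pathway lists 18 to 26 higher and 9 to 14 lower, in place of 25 and 16. With no filter, 10 genes of the pathway lists were lower. At over 2-fold and an unadjusted limma p below 0.05 in the main fit, 165 genes were higher and 81 lower. Of these, 0 were tubulin genes and 0 were genes of the pathway lists. The study names a 2-fold limit and a p below 0.05, but not whether p was adjusted or which genes were tested. Its own counts were therefore not compared with these. The log2 ratio of the summed beta level, 0.0228, was 0.0353 with scaling by the median of ratios, 0.0013 as TPM and 0.2189 without Tubb5. That of the summed alpha level, 0.0225, was 0.035 with scaling by the median of ratios and 0.0017 as TPM. With 1 library left out at a time, the alpha value ran from -0.0002 to 0.0481. The signs of the uncalled differences of Tuba1b, Tuba1c and Tuba4a turned under some scalings. The scalings moved the median of all genes by -0.0205 to 0.0107 on the log2 scale.

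Replicate numbers did not pair the samples: same-numbered libraries' deviations correlated at -0.00459, -0.0112 and -0.0262, and none correlated best with its own number. With the replicate number as a block, 2063 genes were higher and 2044 lower, and 3 tubulin genes were higher and 2 lower (Tubb5 at a limma adjusted p of 0.0433). The block changed no tubulin call. Limits are the number of libraries, reads shared between near-identical genes and the lineage markers that differ between the groups.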
